A study of Mus musculus with 3 samples.

Results

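In mouse C17.2 neural progenitor cells, 230 autosomal sites carried a peak of thyroid hormone receptor beta (TRβ) and a peak of the retinoid X receptor (RXR) but no peak of thyroid hormone receptor alpha (TRα). They were selected on the called peak positions alone, as the TRβ peaks on chromosomes 1 to 19 that shared at least 1 bp with an RXR peak and no base with any TRα peak. They made up 2.43% of the 9460 autosomal TRβ peaks, from 10021 TRβ peaks in all. Because presence and absence of peaks chose these sites, every score, tag count, width and overlap below describes them and was not tested.

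The study profiled 3 libraries, with 1 library per group and no control library. TRα was mapped in line C17.2a, which stably expresses a tagged TRα, and TRβ in line C17.2b, which stably expresses a tagged TRβ. Both tags were protein G, and the receptors were recovered on IgG beads, a method called chromatin affinity purification (ChAP-seq). For RXR, chromatin of C17.2a was pulled down by an antibody to all RXR subtypes (ChIP-seq). All cells had been grown with 12% serum, were moved to serum-free medium for 24 h and received no treatment. The labels do not say whether each line is 1 clone, and peak lists hold no expression values against which the cell type could be checked. TRβ came from one line and both TRα and RXR from the other, so receptor, line and library cannot be told apart at sites that lack TRα.

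Thyroid hormone receptors are nuclear receptors that sit on DNA mostly as heterodimers with RXR, with or without hormone. Without hormone they hold corepressor complexes that contain histone deacetylases, and hormone exchanges these for coactivators. RXR is also the partner of retinoic acid, vitamin D, liver X and peroxisome proliferator-activated receptors, so an RXR peak can mark a site of several receptors. In the developing brain TRα is the more widely expressed thyroid hormone receptor, whereas TRβ is known for roles in the pituitary, liver, retina and inner ear.

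An absent TRα peak was the rule among TRβ peaks and the exception among those that met RXR. No TRα peak lay on 7853 autosomal TRβ peaks (83.0%), and 1555 (16.4%) met RXR. Of these 1555 peaks, 230 (14.8%, 95% exact binomial interval 13.1 to 16.7) lacked TRα and 1325 met TRα as well. Of the TRβ peaks without TRα, 2.93% met RXR (2.57 to 3.33), against 82.5% of those with TRα (80.5 to 84.3). Intervals here and below cover counting error only.

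By score the sites stood in the upper part of the TRβ list and near the middle of the RXR list, with a median percentile of 76.3 among all TRβ peaks and 52.9 among all RXR peaks. The score of a peak is minus 10 times log10 of its p-value as the authors deposited it, with a lower limit near 40 in each list. TRβ scores of the 230 sites ran from 40.1 to 186 with a median of 55.3, against 43.9 for the 7623 TRβ peaks with neither partner and 73.4 for the 1325 with both. The 282 TRβ peaks that met TRα without RXR were close to the sites, with a median of 55.1. A TRβ score of 100 or more was found at 18 sites (7.83%), beside 5.22% of all autosomal TRβ peaks and 28.3% of those with both partners. On the RXR side the median score was 53.6, with a range from 40.2 to 286, against 91.8 where TRα was also present. An RXR score of 100 or more was found at 15 sites (6.52%, 3.70 to 10.5), against 44.8% (42.1 to 47.5) of peaks with both partners.

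Tag counts, the reads inside a peak, were low. A site held between 6 and 76 TRβ tags with a median of 10, against 15 at TRβ peaks with both partners and 7 at those with neither. Its RXR peak held between 10 and 656 tags with a median of 21, against 41 where TRα was present. Per 1000000 unique tags of each library the medians were 0.604 for TRβ and 1.31 for RXR. Only 4 of 230 sites had more TRβ than RXR tags on this scale, and the same was true of 44 of 1325 peaks with both partners. RXR peaks were wider, with a median of 688.5 bp against 177.5 bp for the TRβ peaks of the sites, so these counts cover different lengths.

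**Figure D1:**
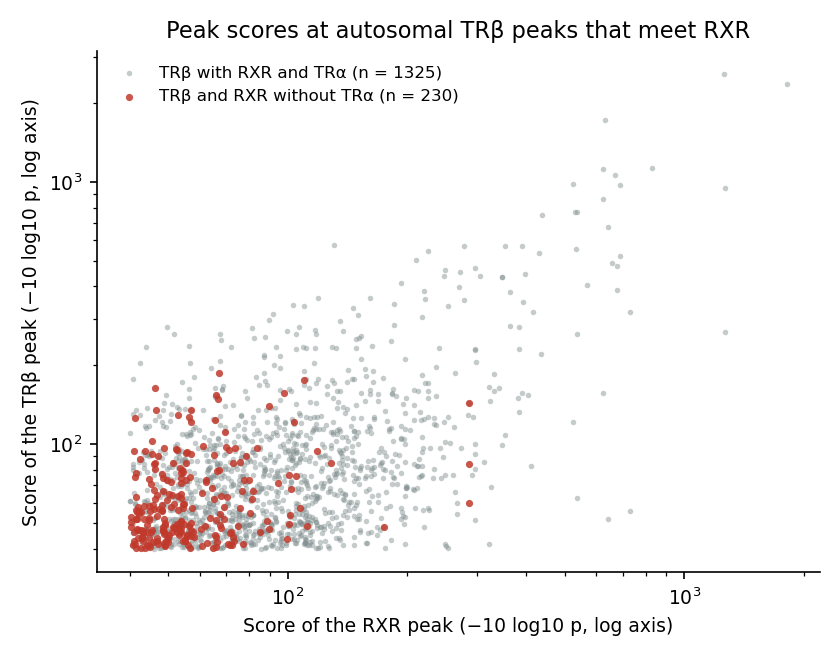
Score of the TRβ peak against score of its RXR peak, both minus 10 times log10 of p on log axes, for autosomal TRβ peaks that met RXR. The 230 sites without TRα (red) lie mostly in the lower left, with median scores of 55.3 for TRβ and 53.6 for RXR, whereas the 1325 peaks with TRα (grey) reach scores over 1000.

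TRα was missing most often where RXR was weak. When the 1555 TRβ peaks with RXR were split into quintiles by RXR score, 39.7% of the lowest quintile (34.3 to 45.4) lacked TRα, then 20.6, 8.36 and 3.86%, and 1.29% of the highest quintile (0.352 to 3.26). By TRβ score the share went from 24.8% in the lowest quintile (20.1 to 29.9) to 5.14% in the highest (2.97 to 8.22), a smaller range. By TRβ width it went from 29.2% in the narrowest quintile (24.2 to 34.6) to 5.18% in the widest (2.99 to 8.27). Whether score or width carried these differences was not tested. Within each of the 4 lower RXR quintiles the sites without TRα held fewer TRβ tags than those with TRα, with medians of 10 against 12, 10 against 12, 10 against 14 and 12 against 16. In the highest quintile 4 sites without TRα had a median of 39 against 24. Of these 4, 3 lay on 1 broad RXR peak of chromosome 11.

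**Figure D2:**
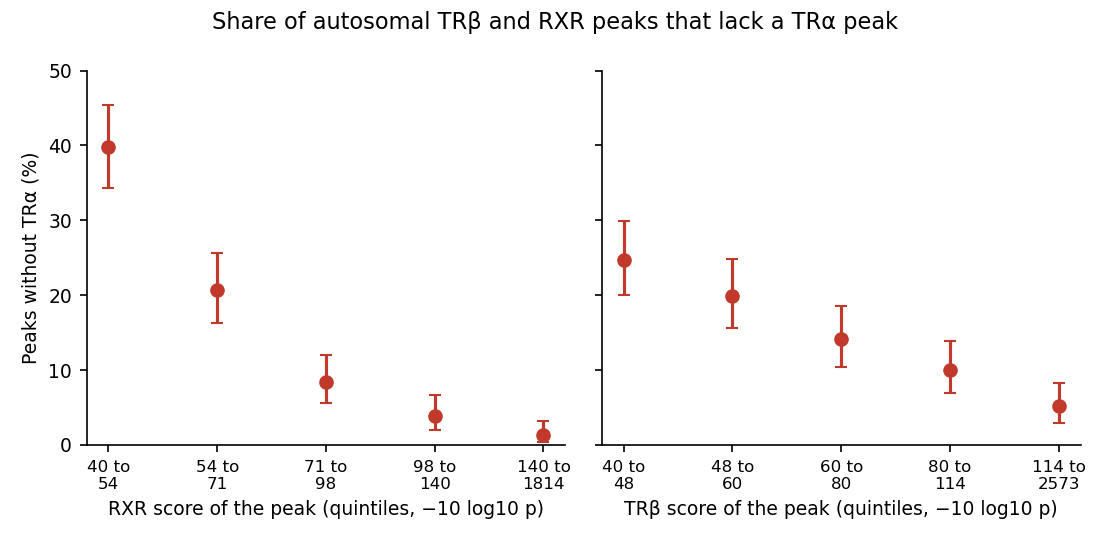
Share of autosomal TRβ peaks with RXR that lacked a TRα peak, in quintiles of the RXR score (left) and of the TRβ score (right), with 95% exact binomial intervals. The share goes from 39.7 to 1.29% across RXR quintiles and from 24.8 to 5.14% across TRβ quintiles.

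Seen from RXR, the sites used 223 of 6953 autosomal RXR peaks, and 5 of these carried 2 sites and 1 carried 3. Sites on the same RXR peak are not separate RXR binding events. Among the 3719 autosomal RXR peaks without TRα, 210 (5.65%, 4.93 to 6.44) met TRβ, against 38.9% (37.2 to 40.6) of the 3234 with TRα. The share without TRα was 2.45% in the lowest quintile of RXR scores and 11.7% (6.82 to 18.3) in the highest. With TRα present it was 13.4% and 58.0% (55.2 to 60.7) in the same quintiles. These shares come from the called peaks that also define the sites, and the highest quintile spans scores from 80.2 to 1814, so strength is not matched within it.

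The TRα list says nothing of TRα tags below its own limit. The fewest tags in any TRα peak were 10, and at 87 of the 230 sites (37.8%) the TRβ tags scaled to the depth of the TRα library came to fewer than that. These sites held up to 8 TRβ tags, as did 62.5% of all autosomal TRβ peaks and 12.6% of those with both partners. TRα peaks were wider, with a median of 559 bp against 168 bp for all TRβ peaks, so the counts cover different lengths. Where peaks of all 3 lists met in the lowest quintile of RXR scores, the TRα peak held a median of 26 tags. That median covers called TRα peaks only, so it could not fall below 10 and says nothing of sites without a call. A TRα signal under the calling limit would not appear in the list, and whether the sites held such a signal was not tested. Absence here means absence of a called peak.

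TRβ and RXR summits lay close together at most sites. The median distance was 38 bp, against 39 bp at TRβ peaks with both partners. Both sets were chosen by overlap of the TRβ and RXR peaks, which itself limits how far apart their summits can lie. The TRβ peak lay wholly inside the RXR peak at 217 of the 230 sites (94.3%, 90.5 to 97.0). With both partners this was so for 1297 of 1325 peaks (97.9%, 97.0 to 98.6). Summits were within 100 bp at 174 sites (75.7%, 69.6 to 81.1), beside 81.7% of all autosomal TRβ peaks with RXR and 82.7% (80.6 to 84.7) of those with TRα. The signed offset, TRβ minus RXR, had a median of -1 bp at the sites and at the peaks with both partners. At the far end, 18 sites (7.83%, 4.70 to 12.1) had summits over 500 bp apart, against 2.94% (2.10 to 4.00) with both partners. Of those 18, 11 lay on an RXR peak that met TRα elsewhere along its length.

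Summits within 5 bp were found at 49 sites (21.3%, 16.2 to 27.2), beside 14.7% of all autosomal TRβ peaks with RXR and 13.6% (11.8 to 15.5) of those with TRα. Of these 49, 23 had a TRβ peak of up to 100 bp, a division that was chosen after the widths had been seen. A width of up to 100 bp was found at 30 sites (13.0%, 8.98 to 18.1), beside 3.88% of all autosomal TRβ peaks. The share was 5.06% (3.94 to 6.38) with both partners, 10.3% (6.996 to 14.4) with TRα alone and 3.16% (2.78 to 3.58) with neither.

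TRβ peaks of the 30 narrow sites were 70 to 100 bp wide and held 6 to 17 tags, with a median fold enrichment of 20.4, where the fold is the authors' deposited ratio, which the headers do not define and which was read as enrichment over local background. The other 200 sites had a median fold of 10.9. A fold of 20 or more was found at 32 of the 230 sites (13.9%, 9.72 to 19.1), 17 of them narrow, beside 3.31% of all autosomal TRβ peaks. The share was 11.7% (10.0 to 13.6) with both partners, 11.7% (8.19 to 16.0) with TRα alone and 1.22% (0.986 to 1.49) with neither. The median summit distance was 4 bp at the narrow sites and 43.5 bp at the others. They were within 5 bp at 23 of 30 narrow sites (76.7%, 57.7 to 90.1) and at 26 of 200 others (13.0%, 8.67 to 18.5). Their RXR peaks were narrower too, with a median of 473 bp against 713 bp, and held a median of 16 tags against 22. RXR fold was higher, with a median of 10.4 against 7.21.

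Narrow TRβ peaks that met both partners also had close summits. In those 67 peaks the median summit distance was 5 bp, and 62.7% (50.01 to 74.2) were within 5 bp. Their median TRβ fold was 24.35. Of the 97 narrow TRβ peaks that met RXR, 30 (30.9%, 21.9 to 41.1) lacked TRα, against 200 of 1458 wider ones (13.7%, 12.0 to 15.6). A narrow peak met RXR in 26.4% of 367 cases (22.0 to 31.3), against 16.0% of 9093 wider peaks (15.3 to 16.8), although a narrow peak has fewer bases to share. Much the same held for TRα, met by 26.2% of narrow peaks (21.7 to 31.0) and 16.6% of wider ones (15.9 to 17.4). The modelled fragment length d was 56 bp in the TRβ calls and 174 bp in the RXR calls. The part of this difference in the narrow peaks was not tested. The lists do not give the positions of single tags, so whether the tags of narrow peaks piled up at a few positions was not tested, and this bears on their fold, score and summit distance. By the file headers 16556350 of 19842907 TRβ tags were unique, against 16033622 of 16654006 for RXR and 19786966 of 20259748 for TRα. Those totals cover whole libraries and do not show single peaks.

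**Figure D3:**
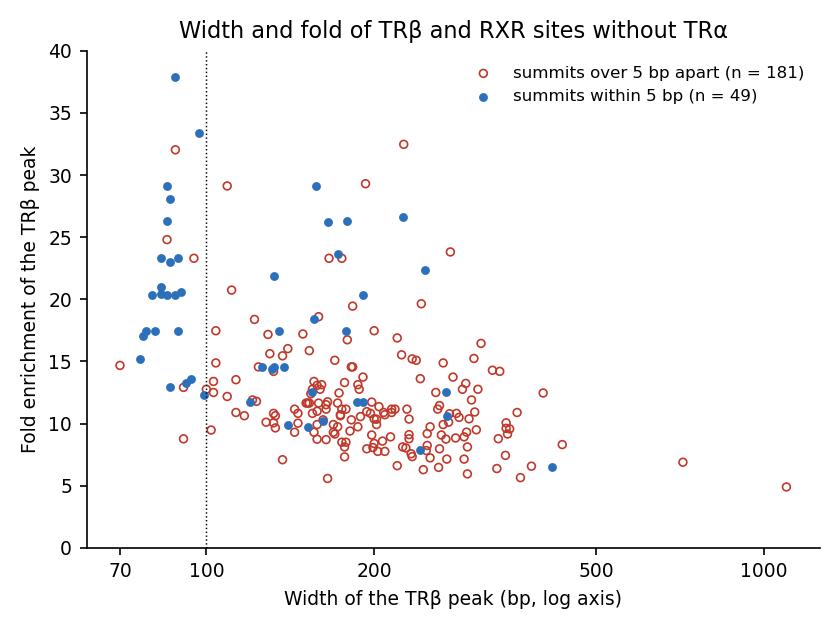
Width (log axis, bp) against fold enrichment of the TRβ peak at the 230 sites, with summits of TRβ and RXR within 5 bp in blue (49 sites) and farther apart in open red (181 sites). Left of the dotted line at 100 bp lie 30 narrow sites, 23 of them blue.

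**Figure D4:**
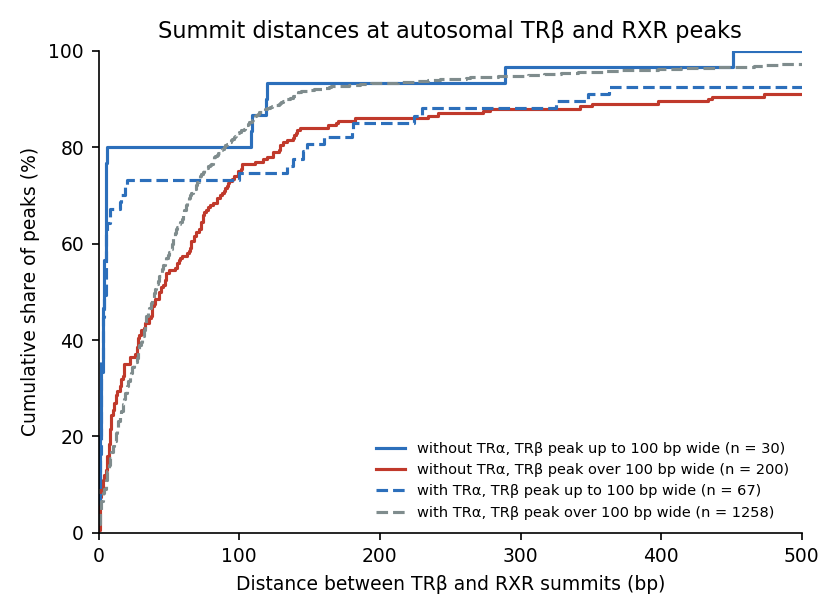
Cumulative share of peaks (%) by distance between TRβ and RXR summits (bp), for sites without TRα (solid) and peaks with TRα (dashed), split at a TRβ width of 100 bp. The narrow sets climb steeply within the first 5 bp, to 76.7% without and 62.7% with TRα, and the wide sets reach 75.0% and 83.1% at 100 bp.

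Of the 10 sites with the highest TRβ score, 5 were narrow peaks with TRβ and RXR summits within 6 bp and no TRα peak within 30 kb, so the limit on narrow peaks given above applies to them. All positions are on mm9. First was chr4:34883012-34883108, with 17 TRβ tags (score 186, fold 33.4) and 20 RXR tags (score 67.0), whose nearest TRα peak lay 30760 bp away. Next was chr16:62398262-62398349, with 13 TRβ tags (score 176) and 17 RXR tags (score 110). Its TRβ fold of 37.9 was the highest of all 230 sites, its summits coincided to the base, and the nearest TRα peak lay 172587 bp away. This site was the only narrow one that also ranked among the 10 highest TRβ and the 10 highest RXR scores.

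The other 3 narrow peaks of this group held 10 or 11 TRβ tags each. They were chr1:8118489-8118576 with 15 RXR tags, chr12:120792536-120792621 with 16 RXR tags and chr5:41974400-41974484 with 11 RXR tags. TRβ folds were 32.0, 28.1 and 29.1 in that order. Nearest TRα peaks lay 285475, 323034 and 289816 bp away.

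Wider peaks made up the rest of the 10. A site at chr5:33071583-33071693 held 23 TRβ tags (score 164) on an RXR peak with 68 tags but a score of 46.4, and shared that RXR peak with another site. At chr1:97348405-97348597 there were 23 TRβ and 17 RXR tags, with summits 111 bp apart and the nearest TRα peak 1081603 bp away. At chr1:124253659-124253837 there were 21 TRβ and 21 RXR tags, with summits 3 bp apart and an RXR score of 46.6. At chr10:80877421-80877781 the TRβ peak of 42 tags lay 1004 bp from the summit of an RXR peak of 180 tags, and a TRα peak of 88 tags lay 314 bp away. The last, chr11:3000388-3000585, belongs to the broad RXR peak described next.

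The highest RXR scores went largely to broad peaks that met TRα outside the TRβ peak. The RXR peak at chr11:2999965-3004897, 4933 bp wide with 656 tags and a score of 286 but a fold of 4.43, carried 3 sites. Their TRβ peaks held 41, 76 and 37 tags, and a TRα peak of 226 tags lay 293, 1055 and 1944 bp from them. The RXR peak of a site at chr3:132536268-132536501 held 122 tags (score 175), with its summit 837 bp from the TRβ summit and a TRα peak 269 bp away. Sites at chr14:20454548-20454679, chr10:13703028-13703208 and chr9:3018321-3018485 had TRα peaks 216, 195 and 176 bp away, with 52, 64 and 225 RXR tags.

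Besides the chromosome 16 site, 2 of the 10 highest RXR scores stood apart from TRα. At chr8:4794019-4794103 a narrow TRβ peak of 7 tags met an RXR peak of 19 tags with a score of 129 and a fold of 18.2, the highest RXR fold of the 230 sites. At chr18:8736776-8736931 there were 8 TRβ and 17 RXR tags with coinciding summits. Nearest TRα peaks lay 268995 and 85500 bp away.

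In all, 16 sites (6.96%, 4.03 to 11.1) sat on an RXR peak that met TRα elsewhere. Their RXR peaks had a median width of 1722.5 bp and a median of 68.5 tags, against 654 bp and 21 tags for the other 214 sites. Median summit distance was 712.5 bp against 34.5 bp, and median gap to TRα 281.5 bp against 69383 bp. Without these 16, summits were within 100 bp at 79.4% of 214 sites (73.4 to 84.6).

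The edges of the rule were as follows. Just inside it on the RXR side were chr10:59732104-59732285, chr3:70916888-70917061 and chr18:7322646-7322736, which shared 47, 61 and 63 bp with RXR. Closest to a TRα peak without touching it was chr3:37318598-37318846, at 27 bp from a TRα peak of 44 tags. Just outside were chr2:113803933-113804092, chr4:102243125-102243268 and chr12:77559862-77560012, whose TRβ peaks shared 13, 23 and 36 bp with TRα. Those 3 peaks held 6, 7 and 6 TRβ tags, near the lowest count in the list.

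Sites without TRα were nearer to TRα peaks than TRβ peaks with neither partner were. The median gap was 60994.5 bp, against 132081 bp for the 7623 peaks with neither. A TRα peak lay within 10 kb of 57 sites (24.8%, 19.3 to 30.9), beside 8.25% of all autosomal TRβ peaks without TRα and 7.75% (7.16 to 8.38) of those with neither. Without the 16 sites whose RXR peak met TRα this was 19.2% of 214 (14.1 to 25.1).

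**Figure D5:**
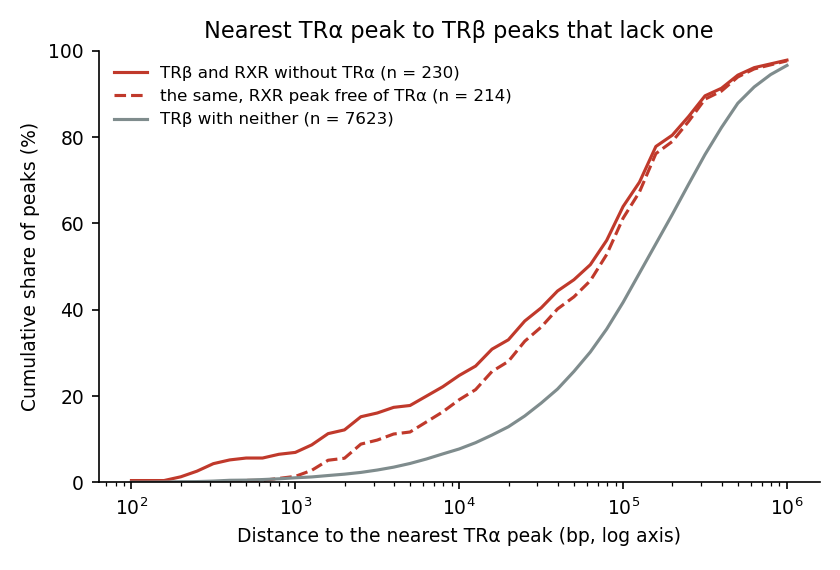
Cumulative share of peaks (%) by distance to the nearest TRα peak (bp, log axis) for the 230 sites (red), the 214 whose RXR peak met no TRα (red dashed) and the 7623 TRβ peaks with neither partner (grey). Within 10 kb the shares are 24.8, 19.2 and 7.75%.

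The sites also had another TRβ peak nearby more often than TRβ peaks with neither partner did. Another TRβ peak lay within 10 kb of 62 sites (27.0%, 21.3 to 33.2), beside 12.3% of all autosomal TRβ peaks. The share was 21.1% (18.9 to 23.4) for peaks with both partners, 26.6% (21.5 to 32.2) with TRα alone and 9.79% (9.13 to 10.5) with neither. Across the 230 sites the Spearman correlation of TRβ with RXR was 0.20 for scores and 0.53 for tags, against 0.34 and 0.51 across the 1325 peaks with both partners. These values run across peaks of 1 TRβ and 1 RXR library, and peaks are not replicates.

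The sites were spread over all 19 autosomes, in 196 bins of 1 Mb, of which 170 held 1 site. As a share of the TRβ peaks of a chromosome they ranged from 1.24% on chromosome 12 (5 of 402, 0.405 to 2.88) to 4.96% on chromosome 19 (14 of 282, 2.74 to 8.19). Chromosome 11 followed with 3.70% (19 of 513, 2.24 to 5.72). The intervals of chromosomes 12 and 19 overlapped only between 2.74 and 2.88%, and the order of chromosomes was not tested.

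Just 6 bins held 3 or more sites. Chromosome 8 from 19 to 20 Mb held 4 sites among 75 TRβ, 17 TRα and 14 RXR peaks, and chromosome 9 from 3 to 4 Mb held 4 among 46, 14 and 10. The others, with 3 sites each, were chromosome 10 from 80 to 81 Mb, chromosome 11 from 3 to 4 Mb and from 85 to 86 Mb, and chromosome 16 from 3 to 4 Mb. On chromosome 16 a pair of sites, chr16:3246486-3247583 with 69 TRβ tags and chr16:3247622-3247987 with 32, lay on 1 RXR peak of 125 tags with a fold of 3.57. The former was the widest TRβ peak of the 230 sites, at 1098 bp, and its TRβ fold of 4.9 was the lowest. Bins with 15 or more peaks of any list held 19 sites (8.26%), against 3.03% of all autosomal TRβ peaks. No control library was used in the calling, and its part in these crowded places was not tested.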

How the data were processed

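Binding was measured in 3 libraries, 1 per group, so no p-value was computed and differences had no replicate check. Per the submitters' processing notes, CASAVA 1.7, Bowtie 0.12.7 and build mm9 were used. Per the file headers, MACS was run library by library without a control, with a p-value cutoff of 0.0001. The headers give a modelled fragment length d of 139, 56 and 174 bp for TRα, TRβ and RXR. The MACS version was not stated there. Unique tags numbered 19786966, 16556350 and 16033622, out of totals of 20259748, 19842907 and 16654006, per the file headers. Each deposited list gives a raw tag count per peak, a score of minus 10 times log10 of the p-value, and a fold ratio that the headers do not define, taken here as enrichment over local background in that library.

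RXR starts count from 0, as end minus start equals the listed length, and 1 bp was added. Each site was paired with its best-scoring RXR peak. Distances ran between peak edges. Overlap and distance steps were compared with a direct search on random simulated peaks, with 0 mismatches. In a separate simulation of overlaps on a sparse grid, 200 of 200 planted sites among 9000 peaks were found. That grid held no crowded peaks, so it checks the code only. Shares carry 95% exact binomial (Clopper-Pearson) intervals. Sites named are those with the 10 highest TRβ and the 10 highest RXR scores, the 3 nearest each edge of the rule and bins of 1 Mb with 3 or more sites, with others chosen after their values were seen. The sites, lists and comparisons were chosen with earlier results of these data known. Alternatives are given in the closing section.

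Planned analyses of response elements, start sites and gene lists were left out, as no mm9 genome or annotation was used here, so no gene is named and no sequence is printed. Software was Python 3.11.15 with scipy 1.17.1, pandas 2.3.3, numpy 2.4.6 and matplotlib 3.10.9.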

Additional observations from a re-analysis of the deposited data

Results flagged for a closer look

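Peaks outside the autosomes were left out by the rule, and a signal of the same kind appeared there. On chromosome X, 33 of 425 TRβ peaks (7.76%, 95% exact binomial interval 5.40 to 10.7) met RXR without TRα, against 2.43% (2.13 to 2.76) on autosomes, and on chromosome Y 8 of 133 did (6.02%, 2.63 to 11.5). By an approximate limit of 3 peaks over the TRβ peaks of each chromosome, a count of 0 would allow shares of up to 0.706% and 2.26%. These limits are not those of the exact interval. Set against TRβ peaks that met RXR, the shares were 19.9% on X (14.1 to 26.8) and 11.0% on Y (4.85 to 20.5), beside 14.8% on autosomes (13.1 to 16.7), and these intervals overlapped.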

How the results depend on the processing

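For 4 results under 13 other settings, 38 values were computed. Of these, 32 stayed within 1.5 times the first count or within the 95% interval of the first share, and 6 left it. With TRβ and RXR peaks limited to scores of at least 50, 85 sites remained, or 8.19% of TRβ peaks with RXR. With TRα peaks limited to scores of at least 50, there were 315 sites, or 20.3%. Summits were within 50 bp at 57.8% of sites, and a TRα peak lay within 50 kb of 47.0%, limits that differ by construction. Without sites whose RXR peak met TRα, a TRα peak lay within 10 kb of 19.2%. That setting, the removal of narrow TRβ peaks and the choice of 1 site per RXR peak were added after seeing the data. Planned settings for response elements and start sites were not run, as those results were not computed. No TRβ peak held under 6 tags and no TRα or RXR peak under 10, so weaker binding was not detectable. No paired analysis was possible because there was a single library for each receptor.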
